A study of Mus musculus with 12 samples.

Results

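The inflammasome component genes examined here were 10 genes chosen by name, namely Nlrp3, Mefv, Aim2, Nlrc4, Nlrp1b, Nek7, Pycard, Casp1, Casp4 and Gsdmd, out of 52553 features in the count tables, of which 20135 were tested. All 10 passed the filter on low counts. They were measured by RNA-seq in monocytes of male C57BL/6 mice, sorted on magnetic columns for CD115, the receptor for macrophage colony-stimulating factor that is encoded by Csf1r. The 4 groups were spleen of intact mice, spleen after resection, blood of intact mice and blood after resection, with 3 libraries each and cells of 5 mice pooled in each library. The resected mice had lost 70% of the liver 24 h before (PH70%), no mouse had been splenectomized, and intact mice kept both organs, and the labels of these libraries name no sham operation, so that the effects of surgery and of lost liver mass cannot be told apart. The age of the mice is not given in the sources used here, and the labels do not say whether the blood and the spleen of a mouse entered libraries of the same number.

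Inflammasomes are protein complexes that assemble in the cytosol of myeloid cells when a sensor meets its trigger. The sensor recruits the adaptor ASC, encoded by Pycard, which gathers and activates caspase-1, the product of Casp1. Caspase-1 cuts the precursors of IL-1β and IL-18 and also gasdermin D, the product of Gsdmd, whose released part forms pores in the plasma membrane. Among the sensors, NLRP3 responds to many kinds of cell damage and needs the kinase NEK7 as a partner, AIM2 binds cytosolic DNA, NLRC4 responds to bacterial flagellin and secretion system proteins through NAIP proteins, pyrin, the product of Mefv, responds to certain bacterial toxins, and NLRP1B responds to proteases such as anthrax lethal factor. Mouse caspase-11, the product of Casp4, binds cytosolic lipopolysaccharide and cuts gasdermin D without an adaptor. Transcription of Nlrp3 and of the gene for IL-1β is known to be induced by a first, priming signal such as a Toll-like receptor ligand, while several other components are present beforehand. Transcript levels carry no information on whether complexes had assembled, and none on the cut forms of caspase-1, the cytokines or gasdermin D.

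The libraries held from 36990033 to 46401368 estimated counts each. Levels are given as CPM, that is, counts set in relation to the size of each library after TMM scaling, and a gene was called when its Benjamini-Hochberg adjusted p-value over all features tested was under 0.05 and its log2 fold change was above 1 in size. The gene Csf1r was present in all groups, at 374 to 525 CPM in intact spleen, 587 to 1192 CPM in spleen after resection, 209 to 467 CPM in intact blood and 601 to 719 CPM in blood after resection. Genes of other cells were present as well. The sum of 13 neutrophil markers ran from 1409 to 2489 CPM in intact spleen, from 5841 to 16122 CPM in spleen after resection, from 164 to 612 CPM in intact blood and from 4362 to 21776 CPM in blood after resection. Library 3 was the highest in both groups after resection, and library 3 of intact blood had 1929.8 CPM of T-cell markers against 485 and 502 CPM in the other 2. Values without these 3 libraries, a choice made after the data were seen, are given beside the results they change. In such bulk samples, fewer cells of a type and less RNA per cell cannot be told apart.

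Resection in blood was the comparison in which most members changed. Nlrp3 rose 18.0-fold by group means, Mefv 6.49-fold, Pycard 3.53-fold and Casp4 3.49-fold, while the other 6 members did not pass the test. Thus 4 of the 10 members were called, all of them higher after resection, against 13.9% of all features tested. The median log2 fold change was 0.64 over the members and -0.10 over all features, and over the members it was 0.26 without the 3 libraries that stand apart, where 4 of the 10 differences were negative. In 6 members the 3 resected libraries did not overlap the 3 intact ones, as was true of 38.4% of all features.

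**Figure D1:**
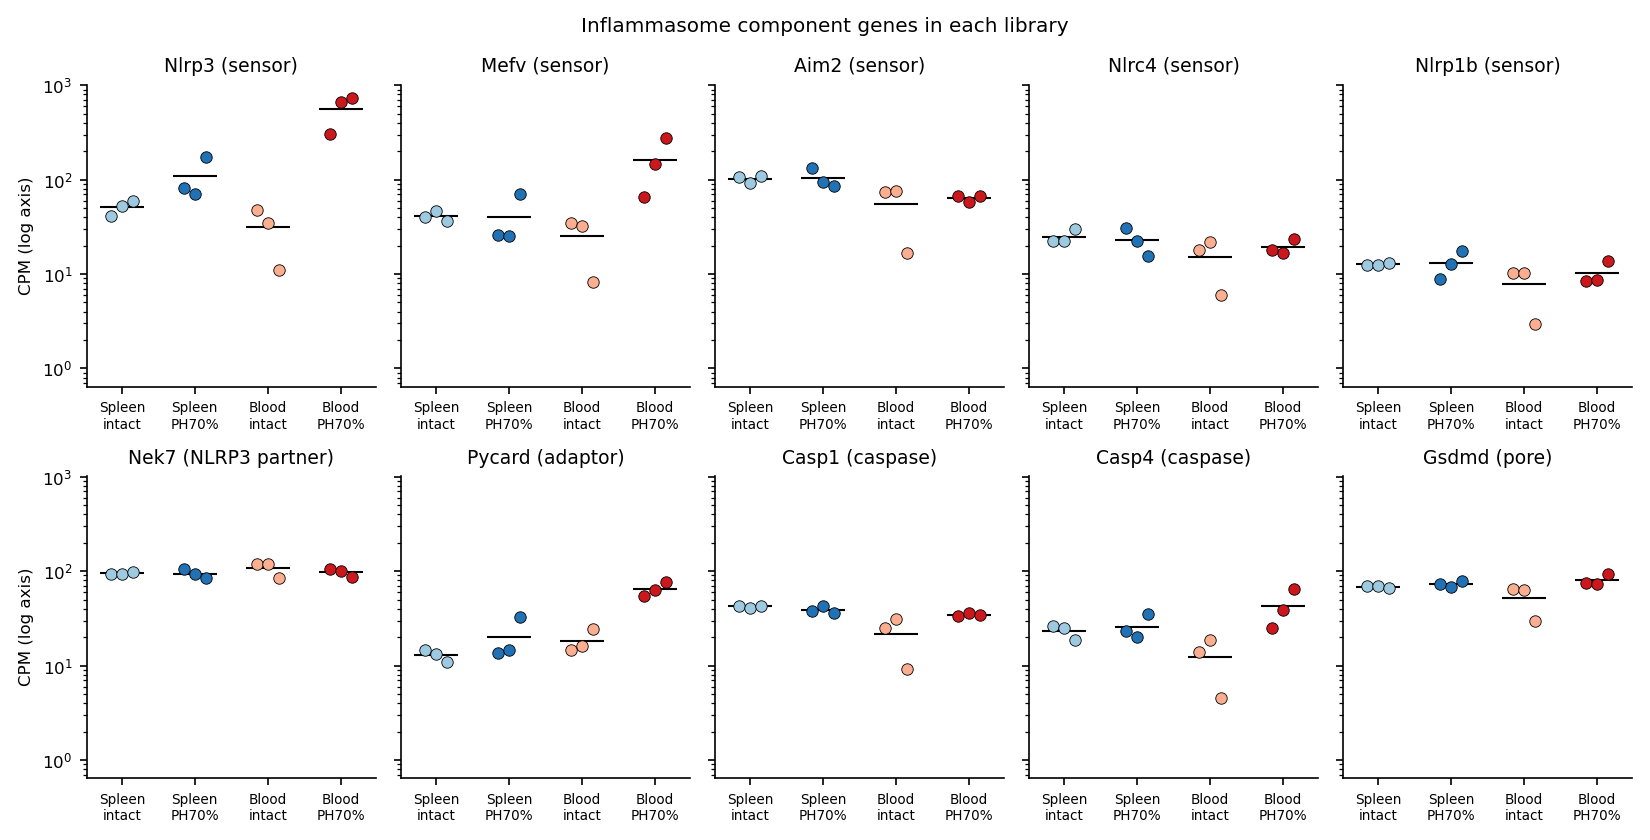
Level of each of the 10 members in each of the 12 libraries, in CPM on a log axis, with 1 point per library in the order 1 to 3 and a bar at the group mean. Nlrp3 stood between 305 and 729 CPM in blood after resection and between 10.9 and 48.3 CPM in intact blood, whereas Nek7 stayed between 83.7 and 119 CPM throughout.

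Among the sensors, Nlrp3 stood at 48.3, 35.1 and 10.9 CPM in the 3 libraries of intact blood and at 305, 668 and 729 CPM in those after resection. All resected libraries were above all intact ones, the lowest of the former being several times the highest of the latter. The log2 fold change was 4.17 (SE 0.61, adjusted p = 0.00218), and it was 3.55 (SE 0.41, adjusted p = 0.00262) without the 3 libraries that stand apart. Mefv, whose product pyrin is known from neutrophils and monocytes, stood at 35.2, 32.0 and 8.21 CPM in intact blood and at 64.9, 146 and 278 CPM after resection. The groups did not overlap, but the resected libraries covered a wide range, with library 3 the highest, as in the sum of neutrophil markers. The log2 fold change of Mefv was 2.70 (SE 0.67, adjusted p = 0.0197), and without the 3 libraries it was 1.66 and passed (SE 0.35, adjusted p = 0.0161). The call of Mefv was lost without library 3 of resected blood (2.08, adjusted p = 0.0773), in a fit of only the blood libraries (2.70, adjusted p = 0.0668) and with the replicate number as a block (2.49, adjusted p = 0.0569).

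The other sensors did not pass the test in blood. Aim2 stood at 74.2, 76.0 and 16.8 CPM in intact and at 67.7, 58.0 and 66.8 CPM in resected animals, a log2 difference of 0.21 (SE 0.44, adjusted p = 0.776). Nlrc4 gave 17.8, 21.8 and 6.01 CPM against 18.1, 16.7 and 23.8 CPM (0.36, SE 0.41, adjusted p = 0.571). Nlrp1b gave 10.2, 10.3 and 2.95 CPM against 8.45, 8.66 and 13.8 CPM (0.40, SE 0.43, adjusted p = 0.548). In each of these 3 genes the groups overlapped, and the lowest value of all was that of library 3 of intact blood, the library with the most T-cell transcripts. The sign of all 3 differences turned negative without the 3 libraries that stand apart, at -0.26 for Aim2, -0.18 for Nlrc4 and -0.26 for Nlrp1b. Nek7, the kinase that partners NLRP3, had the smallest standard error among the members, with 119, 119 and 83.7 CPM in intact and 105, 99.8 and 86.9 CPM in resected animals (-0.14, SE 0.16, adjusted p = 0.554).

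The adaptor gene Pycard stood at 14.5, 16.1 and 24.5 CPM in intact blood and at 55.0, 62.6 and 77.2 CPM after resection. The groups were well apart, and, unlike in the other members, library 3 of intact blood was here the highest of its group. The log2 fold change was 1.82 (SE 0.35, adjusted p = 0.00631), and 1.94 (SE 0.16, adjusted p = 0.00153) without the 3 libraries. Pycard and Nlrp3 kept their calls in blood whichever library was left out, with log2 fold changes of 1.72 to 2.08 and of 3.76 to 4.64.

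Of the caspases, Casp4 stood at 14.0, 18.6 and 4.48 CPM in intact blood and at 25.2, 38.4 and 65.4 CPM after resection. Its groups did not overlap, though the lowest resected and the highest intact library were close together. The log2 fold change of 1.80 (SE 0.50, adjusted p = 0.0300) was the least stable of the 4 calls, since Casp4 was not called without resected library 2 (1.86, adjusted p = 0.0701), resected library 3 (1.38, adjusted p = 0.122) or intact library 1 (1.91, adjusted p = 0.0645), in a fit of only the blood libraries (adjusted p = 0.104) or with the replicate block (adjusted p = 0.0688), and without the 3 libraries together it was 0.97 (adjusted p = 0.0403), under the limit on fold change. Casp1, whose product cuts the cytokine precursors, gave 25.0, 31.4 and 9.09 CPM in intact and 33.8, 36.0 and 34.0 CPM in resected animals. The resected values lay narrowly above the intact ones, and the difference did not pass the test (0.66, SE 0.34, adjusted p = 0.188, and 0.31 without the 3 libraries). Gsdmd, the pore-forming substrate, gave 64.3, 63.9 and 29.6 CPM against 74.7, 73.3 and 92.5 CPM. Here too the groups did not overlap and the adjusted p-value missed the threshold (0.61, SE 0.25, adjusted p = 0.110, and 0.21 without the 3 libraries).

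**Figure D2:**
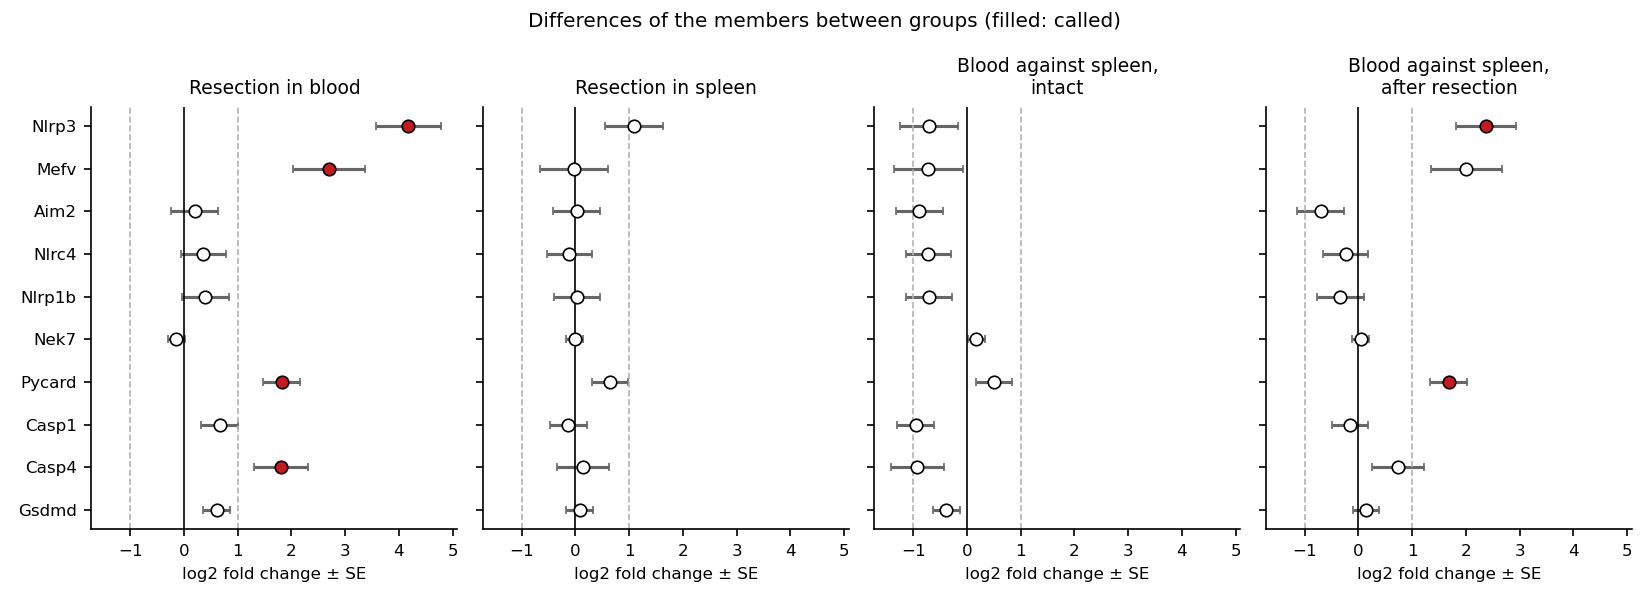
Log2 fold change of each member with its standard error in the 4 comparisons between 2 groups of 3 libraries, with filled points for called genes and dashed lines at the limits on fold change. The filled points are Nlrp3, Mefv, Pycard and Casp4 for resection in blood, and Nlrp3 and Pycard for blood against spleen after resection.

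The stretches upstream of the 4 genes called in blood are shown because these were the members whose transcript level moved. For each, the 250 bases before a start site in RefSeq are printed on the gene's strand from assembly GRCm38.p6, whereas the counts were made on GRCm39, so that the coordinates belong to the older build only. Such windows were found for 9 of the 10 members. Capitals mark matches on either strand to 1 of 6 motifs, namely the NF-kB consensus, GAS (TTCNNNGAA), an interferon-response core (GAAANNGAA), a PU.1 core (GAGGAA), AP-1 (TGANTCA) and C/EBP (TTGCNNAA). Nlrp3 has 2 start sites with a window each, at chr11:59541319-59541568 and at chr11:59542436-59542685, both on the plus strand. The Mefv window is chr16:3718125-3718374 on the minus strand, that of Pycard chr7:127993868-127994117 on the minus strand, and that of Casp4 chr9:5308599-5308848 on the plus strand, the first of 2 largely overlapping windows of this gene.
Nlrp3, upstream start: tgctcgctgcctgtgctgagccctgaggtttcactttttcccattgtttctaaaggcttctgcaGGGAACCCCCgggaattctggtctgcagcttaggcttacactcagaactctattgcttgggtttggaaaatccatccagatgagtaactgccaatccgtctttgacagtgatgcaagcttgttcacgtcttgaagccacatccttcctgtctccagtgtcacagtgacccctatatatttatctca
Nlrp3, downstream start: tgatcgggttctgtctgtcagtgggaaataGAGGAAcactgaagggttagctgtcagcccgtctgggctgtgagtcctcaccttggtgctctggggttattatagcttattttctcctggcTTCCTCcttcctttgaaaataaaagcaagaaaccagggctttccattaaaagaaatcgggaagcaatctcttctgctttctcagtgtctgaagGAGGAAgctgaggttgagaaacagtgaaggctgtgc
Mefv: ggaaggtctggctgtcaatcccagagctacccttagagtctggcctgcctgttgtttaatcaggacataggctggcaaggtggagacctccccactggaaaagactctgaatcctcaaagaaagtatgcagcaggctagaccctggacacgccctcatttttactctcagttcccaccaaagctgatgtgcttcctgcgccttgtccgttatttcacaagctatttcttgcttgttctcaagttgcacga
Pycard: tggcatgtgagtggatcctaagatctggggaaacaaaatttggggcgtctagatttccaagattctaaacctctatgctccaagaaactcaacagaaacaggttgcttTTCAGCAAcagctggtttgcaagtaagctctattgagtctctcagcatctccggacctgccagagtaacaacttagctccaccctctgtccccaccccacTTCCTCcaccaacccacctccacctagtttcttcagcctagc
Casp4: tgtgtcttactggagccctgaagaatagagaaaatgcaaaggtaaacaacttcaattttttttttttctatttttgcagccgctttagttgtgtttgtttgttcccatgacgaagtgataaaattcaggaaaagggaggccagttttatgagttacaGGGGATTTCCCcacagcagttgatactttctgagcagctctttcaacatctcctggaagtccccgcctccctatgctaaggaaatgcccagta

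An NF-kB consensus match stood in the upstream window of Nlrp3, its first base at position -186 from the start site, and 2 overlapping matches stood in the window of Casp4, at -93 and -92, which are the positions -104 and -103 from the other start site of this gene. Such a match was present in 3.90% of all 32851 windows of this length. The downstream window of Nlrp3 held 3 PU.1 cores and that of Pycard held 1, a motif present in 23.3% of all windows, and the window of Pycard also held a C/EBP match, present in 9.56%. In the window of Mefv none of the 6 motifs was found, which says only that these letters are not in this stretch. Among the members that were not called, the windows of Aim2, Casp1 and of 1 start site of Nlrp1b held PU.1 cores, and those of Nlrc4 and Nlrp1b C/EBP matches, while Nek7 had none of the 6. The matches are letters in the genome, and binding of a factor was not measured.

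In spleen, no member passed the test for resection. Of the 10, edgeR called 0, against 1.38% of all features tested, none had an unadjusted p-value under 0.05, and DESeq2 called none either. The median log2 fold change was 0.03 over the members and 0.05 over all features. Nlrp3 had the largest difference, with 41.0, 52.8 and 59.7 CPM in intact spleen and 82.4, 71.1 and 174 CPM after resection. It was the one member whose groups did not overlap, as was the case for 35.1% of all features, yet its log2 difference of 1.09 (SE 0.54, adjusted p = 0.283) did not pass the test, and it was 0.59 (SE 0.34, adjusted p = 0.303) without the 3 libraries. The highest Nlrp3 value belonged to library 3, which also had the highest sum of neutrophil markers in spleen.

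Pycard came next in spleen, with 14.6, 13.4 and 10.9 CPM in intact and 13.7, 14.6 and 32.5 CPM in resected animals (0.64, SE 0.34, adjusted p = 0.311), and this difference lay in library 3 alone, since the log2 value was 0.13 without the 3 libraries. Mefv gave 40.7, 46.2 and 36.8 CPM against 25.6, 25.3 and 70.5 CPM (-0.03, SE 0.63, adjusted p = 0.992), so that 2 resected libraries were below and library 3 was above every intact one. Casp4 behaved alike in library 3, with 26.5, 25.0 and 18.5 CPM in intact and 23.0, 19.9 and 34.8 CPM in resected spleen (0.15, SE 0.49, adjusted p = 0.905). The remaining 6 members had log2 differences from -0.13 to 0.08 with overlapping groups. Of these, Gsdmd ran from 65.7 to 70.3 CPM in intact and from 67.4 to 78.0 CPM in resected spleen, Aim2 from 91.8 to 110.3 and from 85.8 to 133 CPM, and Casp1 from 41.1 to 43.1 and from 35.9 to 42.7 CPM. Nek7 was again steady, at 93.1 to 98.0 CPM and 83.8 to 105 CPM, and the rarer sensors Nlrc4 and Nlrp1b ran from 22.2 to 29.9 and from 12.6 to 13.0 CPM in intact and from 15.7 to 30.9 and from 8.97 to 17.5 CPM in resected spleen.

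Whether resection acted differently on the members in blood and in spleen was tested in the same model. No member passed with edgeR, against 0.283% of all features tested, although 4 members had unadjusted p-values under 0.05. The resection effect was larger in blood by a log2 value of 3.08 for Nlrp3 (SE 0.77, adjusted p = 0.129), 2.72 for Mefv (SE 0.91, adjusted p = 0.196), 1.66 for Casp4 (SE 0.69, adjusted p = 0.264) and 1.18 for Pycard (SE 0.48, adjusted p = 0.251). DESeq2 called Nlrp3 (3.11, adjusted p = 0.00255) and Mefv (2.75, adjusted p = 0.0338). Without the 3 libraries edgeR called Nlrp3 (2.96, adjusted p = 0.0441) and Pycard (1.81, adjusted p = 0.0259). Whether a member was called in this comparison thus depended on the tool and on the libraries used.

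In intact animals, most members were at lower levels in blood than in spleen, but edgeR called none of the 10, against 7.35% of all features, and DESeq2 called none either, with 1 member at an unadjusted p under 0.05. The log2 difference was negative for 8 members, and the median was -0.71 over the members and -0.02 over all features. The median over the members was -0.20 without the 3 libraries that stand apart, where 7 differences were negative. Casp1 came closest, with 25.0, 31.4 and 9.09 CPM in blood against 43.1, 41.1 and 42.8 CPM in spleen (-0.95, SE 0.34, adjusted p = 0.110), and without the 3 libraries its difference was -0.48 (adjusted p = 0.0346), under the limit on fold change. Casp1 was 1 of 6 members whose groups did not overlap, with Aim2, Mefv, Nlrc4, Nlrp1b and Gsdmd, whereas 34.5% of all features did not. Library 3 of intact blood was far below the other 2 in each of these 6 genes, and without the 3 libraries the differences were -0.34 for Aim2, -0.19 for Mefv, -0.23 for Nlrc4, -0.21 for Nlrp1b and 0.0056 for Gsdmd. Pycard (0.50) and Nek7 (0.17) were the 2 members with a positive difference. Without the 3 libraries that of Nek7 was 0.43 (SE 0.08, adjusted p = 0.0129), under the limit on fold change, and that of Pycard 0.34 (adjusted p = 0.156).

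After resection, Nlrp3 and Pycard were higher in blood than in spleen. They were the 2 members called of the 10, against 13.1% of all features tested, and 3 members did not overlap between the tissues, against 42.4% of all features. Nlrp3 was 5.20-fold higher by group means (log2 2.38, SE 0.56, adjusted p = 0.0173), its lowest blood library (305 CPM) being above its highest spleen library (174 CPM). Leaving out 1 library ended the call of Nlrp3 in 4 cases, with log2 values of 2.25 to 2.33 and adjusted p-values of 0.0518 to 0.0673, namely for blood libraries 2 and 3 and spleen libraries 1 and 2 after resection. Pycard was 3.20-fold higher in blood (log2 1.68, SE 0.34, adjusted p = 0.00946), at 55.0 to 77.2 CPM against 13.7 to 32.5 CPM. Aim2 was the third member without overlap, with blood libraries at 58.0 to 67.7 CPM below spleen libraries at 85.8 to 133 CPM. It did not pass the test (-0.70, SE 0.44, adjusted p = 0.294). Without the 3 libraries that stand apart its difference was -0.75 (SE 0.17, adjusted p = 0.0181), under the limit on fold change.

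Mefv stood at 64.9, 146 and 278 CPM in blood and at 25.6, 25.3 and 70.5 CPM in spleen after resection. The groups overlapped by 1 library on each side, and the log2 difference of 2.01 missed the threshold (SE 0.65, adjusted p = 0.0573). A fit of the 6 resected libraries with the replicate number as a block was added after the data were seen. The reason was a correlation of equal numbers in these groups, and the labels state no such pairing. In that fit the log2 difference of Mefv was the same, 2.01, and passed (SE 0.27, adjusted p = 0.0245). This pass rests on a pairing taken from these same data. At every replicate number the blood library was the higher one. The median over the members was 0.09 in this comparison and -0.14 over all features, a shift that was -0.03 with the size factors of DESeq2 in place of TMM.

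Marker genes of other cells also differed after resection. In blood, all 13 neutrophil markers, 5 of 7 peritoneal macrophage markers and 4 of 5 red pulp macrophage markers were called higher after resection, and all 4 T-cell markers tested were called lower. The summed peritoneal macrophage markers ran from 319 to 1025 CPM in intact and from 4861 to 6226 CPM in resected blood, and the red pulp macrophage markers from 48.6 to 76.2 and from 593 to 891 CPM. Hmox1 made up most of the red pulp sum in resected blood, at 565 to 801 CPM. The means of Spic, Vcam1 and Slc40a1 rose from 0.874, 0.498 and 5.24 CPM to 3.98, 3.55 and 36.5 CPM. That of Siglec1 was 13.5 CPM in intact and 9.94 CPM in resected blood. None of the markers was at 0 in every library of a group. Of the monocyte markers, 2 of 10 were called higher and 1 lower, and their sum ran from 3559 to 9285 CPM in intact and from 12447 to 14371 CPM in resected blood. Lyz2 and Itgam made up most of this sum, with means of 4578 and 600 CPM in intact and 7646 and 3600 CPM in resected blood. The means of Cx3cr1, Ace and Ly6c2 fell from 41.0, 104 and 53.5 CPM to 8.90, 46.3 and 35.9 CPM. Those of Ccr2 and Nr4a1 were 275 and 334 CPM in intact and 307 and 346 CPM in resected blood. The means of Csf1r, Cd68 and Treml4 rose from 346, 97.7 and 14.5 CPM to 666, 447 and 29.3 CPM. In spleen, 2 of 13 neutrophil markers and 1 of 5 red pulp macrophage markers were called higher, and 1 of 5 NK-cell markers was called lower. The intact tissues differed as well. Called lower in intact blood than in intact spleen were 6 of 13 neutrophil, 4 of 5 red pulp macrophage and 3 of 6 dendritic-cell markers. Called higher were 4 of 4 T-cell, 6 of 7 peritoneal macrophage, 5 of 6 erythroid and 5 of 5 platelet markers. Of 10 monocyte markers 1 was called in each direction. B-cell sums were 3910 to 4447 CPM in intact spleen and 485 to 2164 CPM in intact blood, with 0 of 5 called.

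Within each resected group, the called members and the neutrophil markers ranked the libraries much alike. In resected blood the neutrophil sums were 4362, 5491 and 21776 CPM in libraries 1, 2 and 3, and Nlrp3, Mefv, Pycard and Casp4 were each lowest in library 1 and highest in library 3. In resected spleen the sums were 6252, 5841 and 16122 CPM, and Nlrp3, Mefv and Casp4 were in the same order, with library 2 lowest and library 3 highest, while Pycard was lowest in library 1 and highest in library 3. Neutrophil markers were not alone in this order. In resected blood the red pulp macrophage sums, most of them Hmox1, also rose from library 1 to 3 (593, 769 and 891 CPM), and the B-cell sums fell (1644, 1114 and 664 CPM). In resected spleen the red pulp macrophage sums had another order (2053, 3296 and 1975 CPM). Between the tissues the order of the neutrophil sums and the members was another one. Spleen library 3 had more neutrophil marker counts than blood libraries 1 and 2 and had less Nlrp3 (174 CPM against 305 and 668 CPM) and less Pycard (32.5 CPM against 55.0 and 62.6 CPM), and its 70.5 CPM of Mefv lay between their 64.9 and 146 CPM. Other marker lists also differed between the resected tissues. Peritoneal macrophage markers summed to 53.9 to 411 CPM in spleen and 4861 to 6226 CPM in blood, with 6 of 7 called higher in blood. Red pulp macrophage markers went the other way, at 1975 to 3296 CPM in spleen and 593 to 891 CPM in blood, with 3 of 5 called lower in blood. Monocyte markers summed to 3985 to 4638 CPM in spleen and 12447 to 14371 CPM in blood, with 4 of 10 called higher and 2 lower in blood. Platelet markers summed to 10.7 to 29.0 CPM in spleen and 792 to 881 CPM in blood, with 5 of 5 called higher in blood. Also called higher in blood were 5 of 6 erythroid, 3 of 4 T-cell and 1 of 5 NK-cell markers. Called lower there were 3 of 6 dendritic-cell and 2 of 13 neutrophil markers. The part of neutrophils, macrophages, T cells or any other cell type in the differences of the members was not tested.

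**Figure D3:**
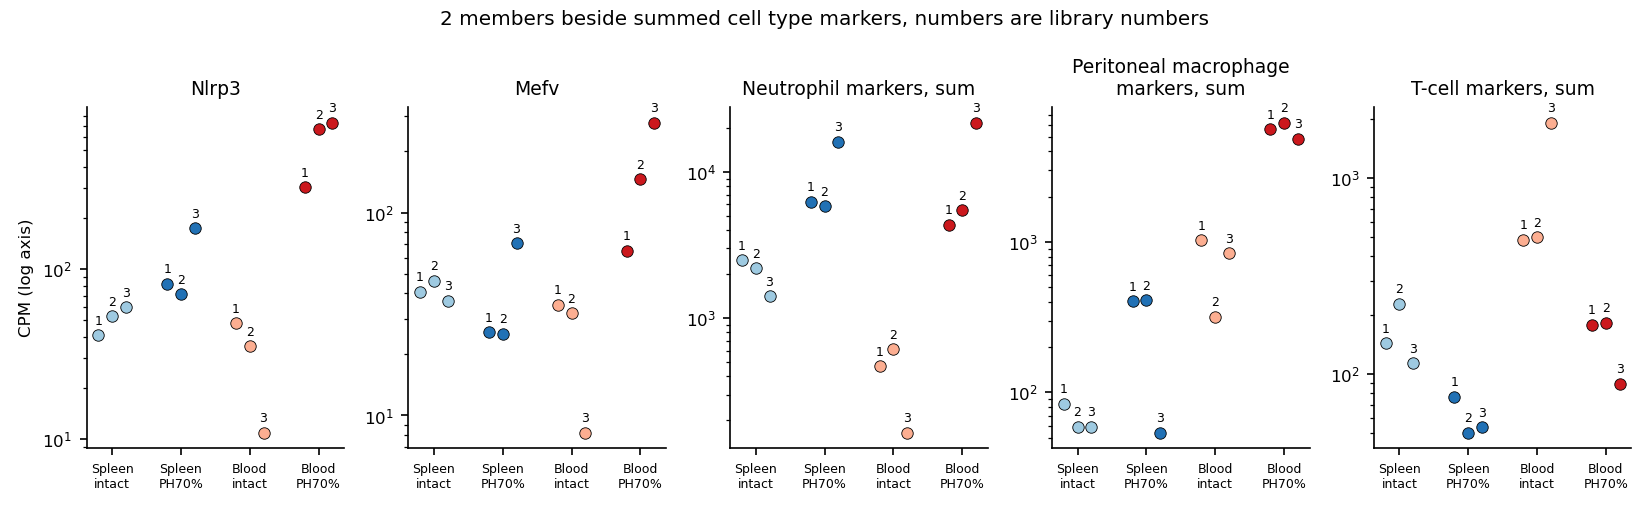
Nlrp3, Mefv and the summed neutrophil (13 genes), peritoneal macrophage (7 genes) and T-cell (4 genes) markers in each library, in CPM on log axes that differ between panels, with the library number above each point. Library 3 after resection was highest in neutrophil markers in spleen (16122 CPM) and blood (21776 CPM), and library 3 of intact blood was lowest in Nlrp3 (10.9 CPM) and highest in T-cell markers (1929.8 CPM).

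To compare genes with each other, CPM were divided by the length of the longest principal transcript of each gene in kilobases. On this scale Gsdmd (38.3 CPM per kb) and Aim2 (36.1 CPM per kb) led in intact spleen and did not differ beyond their spread, which was 36.6 to 39.2 for Gsdmd and 32.3 to 38.9 for Aim2. Casp1 followed at 28.3, Nek7 at 18.1, Casp4 at 16.3, Mefv at 13.3 and Nlrp3 at 12.7 CPM per kb, where the libraries of Nek7 and Casp4 overlapped, as did those of Casp4, Mefv and Nlrp3. Nlrc4 (5.26), Pycard (3.41) and Nlrp1b (3.08 CPM per kb) were the lowest, and Pycard overlapped Nlrp1b. In resected blood the order was headed by Nlrp3 at 141 CPM per kb, with libraries from 75.7 to 181, above Mefv at 52.6 and Gsdmd at 44.7 CPM per kb. Mefv spread from 21.0 to 89.7 CPM per kb in these libraries and overlapped both its neighbours in the order, while Nlrp3 and Gsdmd did not overlap. The transcript of Pycard used for this scale is 3800 bases long. Its level would be higher on the scale with a shorter transcript, so that its place in the order in both groups depends on this choice.

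For Nlrp3 the counts of 2 entries were summed, 1 under the gene symbol and 1 under a non-coding RefSeq transcript of the gene, which held 11.3% of its counts. This share was 20.4% to 35.5% in the 3 libraries of intact blood and 9.83% to 14.7% in those after resection. With the symbol's entry alone the log2 fold change of Nlrp3 in blood was 4.36. Casp1 and Casp4 lie side by side on chromosome 9 and resemble each other in sequence, and Nlrp1b has the close paralog Nlrp1a, so that reads shared between such copies make their counts less certain.

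The other genes of the pathway were followed in a list of 55, all of them tested. In blood after resection 12 were called higher and 1 lower, 23.6% of the list against the 13.9% of all features given above, with a median log2 fold change of 0.34 over the list. Without the 3 libraries that stand apart, 9 were called higher and 6 lower. In spleen 2 were called higher and 1 lower, 5.45% against 1.38% of all features, with a median of -0.10. The list was chosen with results of these data known, and the counts describe it only.

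**Figure D4:**
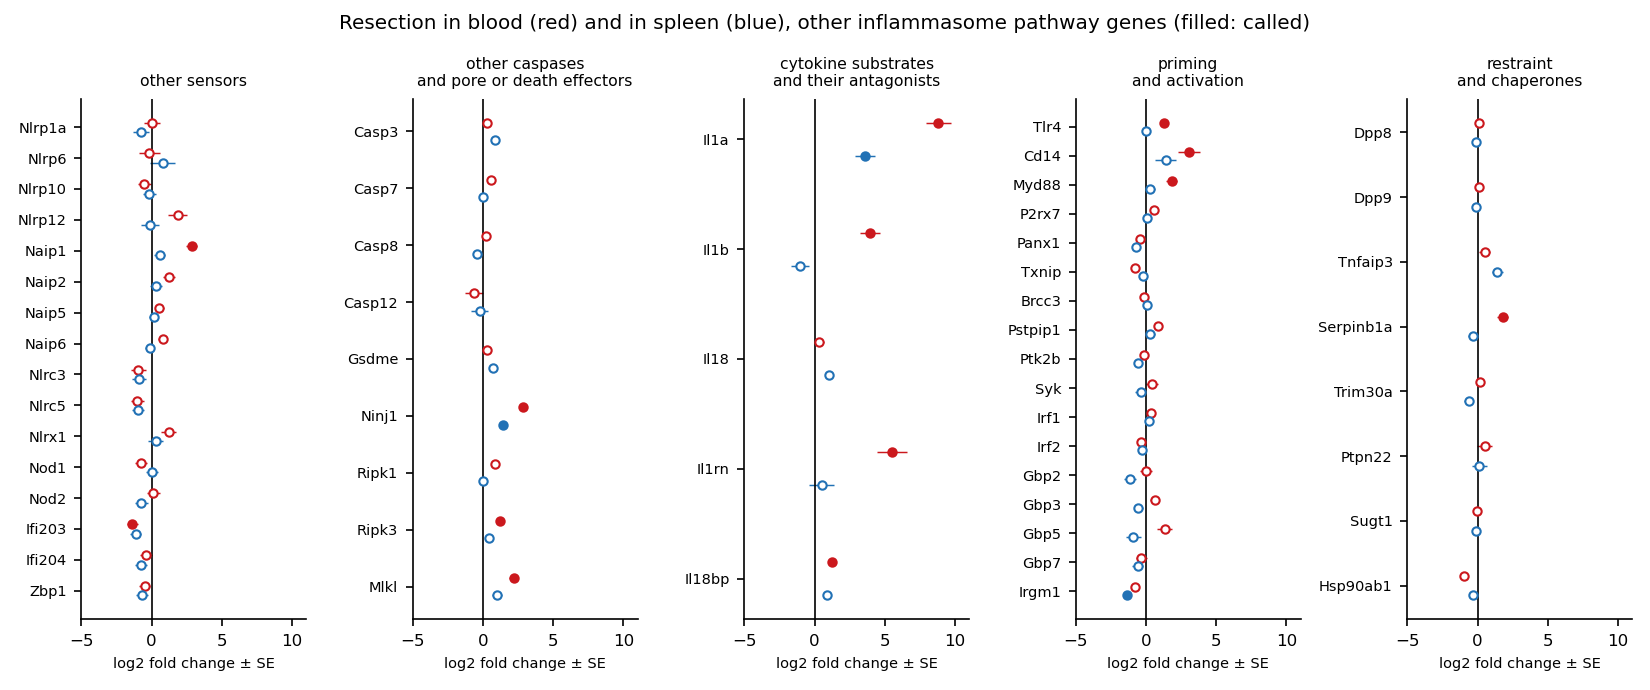
Log2 fold change with its standard error for resection in blood (red) and in spleen (blue), for the 55 other genes of the pathway in 5 groups, with filled points for called genes. Il1a had the largest change in both tissues, 8.80 in blood and 3.61 in spleen, and Il1b was higher in resected blood (3.95) but not in resected spleen (-1.03).

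Of the 5 genes of cytokines and their antagonists, 4 rose in blood and 1 in spleen. Il1a encodes IL-1α, which is not among the caspase-1 substrates named above. Il1a stood at 3.00, 2.21 and 3.98 CPM in intact blood and at 777, 1860.2 and 1454 CPM after resection, a log2 fold change of 8.80 (SE 0.89, adjusted p = 0.000623). It also rose in spleen, from 1.62, 2.86 and 4.85 CPM to 29.7, 10.5 and 74.3 CPM (3.61, SE 0.71, adjusted p = 0.0396), though the call in spleen was lost in 10 of the 12 fits that left out 1 library. Il1b, the main cytokine substrate of caspase-1, stood at 71.5, 124 and 20.9 CPM in intact and at 451, 1407 and 1480.0 CPM in resected blood (3.95, SE 0.69, adjusted p = 0.00457). In spleen Il1b stood at 475, 707 and 530.1 CPM before and at 162, 269.6 and 407 CPM after resection, the opposite order, which did not pass the test (-1.03, SE 0.62, adjusted p = 0.382), and the difference between the tissues did not pass either (4.98, SE 0.92, adjusted p = 0.0639).

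Il18, the other substrate, was low in blood, at 5.16 to 10.1 CPM in intact and at most 11.1 CPM in resected animals (0.34, SE 0.31, adjusted p = 0.465). In spleen it ran from 18.4 to 28.0 and from 30.4 to 60.7 CPM (1.04, SE 0.31, adjusted p = 0.102). Il18 was lower in blood than in spleen in both states, by -1.50 in intact (adjusted p = 0.0186) and -2.19 in resected animals (adjusted p = 0.00228). Il1b was lower in intact blood than in intact spleen (-2.98, SE 0.66, adjusted p = 0.0240), while after resection the blood libraries lay above all spleen libraries without passing the test (1.99, SE 0.64, adjusted p = 0.0544). The genes of both antagonists rose in blood, Il1rn, which encodes the IL-1 receptor antagonist, by 5.53 (SE 1.08, adjusted p = 0.00703, and 3.81 without the 3 libraries) and Il18bp, which encodes the IL-18 binding protein, by 1.26 (SE 0.26, adjusted p = 0.00929). The change of Il18bp was 0.91 without the 3 libraries and then under the limit on fold change.

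Among the 9 other caspases and effectors of pore formation or lytic death, 3 rose in blood. Ninj1, whose product ruptures the plasma membrane after pore formation, stood at 46.2, 31.7 and 24.2 CPM in intact and at 215, 259 and 249 CPM in resected blood (2.82, SE 0.25, adjusted p = 0.000427). Ninj1 also rose in spleen (1.45, SE 0.23, adjusted p = 0.0253) and was higher in blood than in spleen after resection (1.36, SE 0.23, adjusted p = 0.00445), and its call in spleen was lost in 5 of the 12 fits without 1 library. Mlkl, the executor of necroptosis, rose by 2.18 in blood (SE 0.34, adjusted p = 0.00283) and its activating kinase Ripk3 by 1.23 (SE 0.16, adjusted p = 0.00134). Mlkl was also higher in blood than in spleen after resection (1.66), and Gsdme, another gasdermin, was lower (-1.04, adjusted p = 0.00507), a call that every fit without 1 library lost.

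Of the 16 other sensors, Naip1 was called in 3 of the 4 comparisons between 2 groups. NAIP proteins bind the bacterial ligands of the NLRC4 inflammasome, and Naip1 stood at 10.7, 6.78 and 5.48 CPM in intact and at 47.2, 51.2 and 67.9 CPM in resected blood (2.85, SE 0.40, adjusted p = 0.00192). In spleen it remained between 1.48 and 4.45 CPM (0.59, SE 0.39, adjusted p = 0.424). Naip1 was higher in blood than in spleen in intact (2.10, adjusted p = 0.0128) and in resected animals (4.37, adjusted p = 0.000475), whereas Nlrc4, its partner among the members, was called in none of the comparisons. Ifi203, a relative of Aim2, was called lower in resected blood (-1.37, adjusted p = 0.0346) although its groups overlapped, since library 3 of intact blood stood at 61.8 CPM against 205 and 210.3 CPM in the other 2, and the call was lost in 9 of the 12 fits without 1 library. Nlrp12 was lower in intact blood than in intact spleen (-3.25, adjusted p = 0.0224). Nlrp6 had at most 2 counts in any splenic library, 7 to 21 counts in intact blood and 10 to 13 counts in resected blood. Its group mean in blood was at least 6.20-fold higher in intact and 4.75-fold higher in resected animals. These bounds are set against 3 counts in the shallowest splenic library and hold for the means only. The lowest blood libraries were at 0.153 CPM in intact and 0.281 CPM in resected animals, against 0.0639 and 0.0737 CPM for 3 counts in spleen. Both calls of Nlrp6 were lost in some fits without 1 library, in 5 and 7 of the 12.

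Among the 17 genes of priming and activation, 3 rose in blood after resection. Cd14, the coreceptor for lipopolysaccharide, stood at 239.6, 113 and 89.7 CPM in intact and at 630.0, 1045 and 2034 CPM in resected blood (3.07, SE 0.81, adjusted p = 0.0245), and without the 3 libraries it was 2.25 with an adjusted p of 0.05001, just over the threshold. Myd88, the adaptor of most Toll-like receptors, rose by 1.82 (SE 0.38, adjusted p = 0.00973, and 1.20 without the 3 libraries) and Tlr4, the lipopolysaccharide receptor, by 1.27 (SE 0.20, adjusted p = 0.00299), which was 0.95 and under the limit on fold change without the 3 libraries. In spleen Irgm1, an interferon-induced GTPase, fell by 1.33 on the log2 scale (SE 0.22, adjusted p = 0.0253), from 74.9, 69.7 and 57.2 CPM to 25.6, 23.1 and 31.7 CPM, a call lost in 8 of the 12 fits without 1 library. In intact animals Tlr4 (-1.03) and Ptk2b (-1.13), the gene of a kinase that phosphorylates ASC, were lower in blood than in spleen, and both were under the limit on fold change without the 3 libraries, at -0.82 and -0.85, while leaving out 1 library ended the call of Tlr4 in 10 of the 12 fits.

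Of the 8 genes of restraint and chaperones, Serpinb1a, whose product inhibits neutrophil proteases, rose in blood from 36.8, 38.7 and 12.4 CPM to 93.2, 96.8 and 113 CPM (1.79, SE 0.37, adjusted p = 0.00929). Serpinb1a was lower in intact blood than in intact spleen (-2.13, adjusted p = 0.00977). Tnfaip3, which encodes the ubiquitin-editing enzyme A20 and restrains NF-kB, was higher in intact blood than in intact spleen (1.67, SE 0.38, adjusted p = 0.0259). Over the whole list, 3 genes were called higher and 6 lower in intact blood against intact spleen, 16.4% against 7.35% of all features. After resection 5 were higher and 2 lower in blood, 12.7% of the list and near the 13.1% of all features, and these counts were 9 and 2 in the fit of the 6 resected libraries with the replicate block. By edgeR 0 of the 55 passed the test of the difference between the tissues, 15 had an unadjusted p under 0.05 and DESeq2 called 8, and without the 3 libraries 5 were called higher and 1 lower.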

How the data were processed

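RNA-seq of CD115-sorted mouse monocytes was analysed in 12 libraries of 4 groups, as given by the labels. The authors deposited 1 table per library of estimated counts, neither scaled to library size nor to gene length. The submitters' processing notes name STAR and GRCm39, and the counting tool and its handling of shared reads are not given in the sources used here. The library kit is strand-specific per the labels. Of 67088 entries per table, 2558 unassigned transcripts, holding 1.75% to 4.33% of a library, were left out. RefSeq accessions were matched to symbols through the RefSeq gene table of GRCm38.p6, 25340 of 40274, and counts were summed per gene and rounded.

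The test was edgeR 4.0.16 under R 4.3.3 (filterByExpr, TMM, robust quasi-likelihood F test), in 1 fit of all 12 libraries without covariates. The standard error is the log2 fold change divided by the square root of F. The test was first run on simulated counts. Their spread was set smaller than the common dispersion of the data (0.312), so that run does not show how the test performs on these libraries. DESeq2 1.42.0 was an alternative. The other alternatives were RLE size factors, no filter or at least 10 counts in every library, only the groups compared, entries as deposited, no fold limit, a replicate block, no haemoglobin genes, and each library left out. Leaving out 3 libraries together and the block within the resected libraries were added after seeing the data. The haemoglobin genes took 0.0814% to 3.47% of counts in spleen and 13.2% to 34.2% in blood.

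Replicate numbers were compared by the correlation of deviations from group means. Equal numbers of resected blood and resected spleen correlated at 0.108, 0.247 and 0.361, each over 0.1, and the block within the resected libraries was fitted for this reason. All other pairs of groups gave -0.132 to 0.127. The 0.127 came from replicate 1 of intact blood and of resected spleen, groups that cannot share mice. Unequal numbers were not compared, so these values do not show that equal numbers came from the same mice. Libraries of 1 group differed far more than counting error allows (chi-square divided by its degrees of freedom, 21.3 to 619). Limits from 3 counts (0.0626 to 0.102 CPM) cover counting error only, since reads carried no molecular identifiers, and p-values measure the spread between pooled libraries.

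The text names all 10 members, and of each group of pathway genes those called in a comparison (at most 4 per direction) with Il1b and Il18 always. The members and all gene lists were chosen with earlier results of these data known. Transcript lengths came from GENCODE M21 and upstream sequences from RefSeq on GRCm38.p6. Coordinates of the 2 builds were not converted.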

Additional observations from a re-analysis of the deposited data

How the results depend on the processing

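The 4 calls for resection in blood were made under RLE factors, DESeq2, both filters, the entries as deposited, no fold limit and without haemoglobin genes. With only the groups compared, the members called there were 2, since Mefv (2.70, adjusted p = 0.0668) and Casp4 (1.80, adjusted p = 0.104) missed the threshold. With the replicate block over all 12 libraries they were also 2 (Mefv 2.49, adjusted p = 0.0569, and Casp4 1.80, adjusted p = 0.0688). The labels do not say whether equal numbers are pairs in any of the groups. Leaving out 1 library gave 2 to 4 members called in blood, 1 to 3 for blood against spleen after resection and 0 in the other 3 comparisons. For the tissue difference of the resection effect, 2 members were called by DESeq2 and 2 without the 3 libraries that stand apart, against 0. Mefv for blood against spleen after resection was called by DESeq2 (2.13), with at least 10 counts in every library (2.03), without the 3 libraries (2.16) and with the replicate block in the resected libraries (2.01), and in 3 of the fits without 1 library. The block ended or added no other call among the members. A fit of only the groups compared was not possible for the tissue difference, which uses all 4.

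Signs turned only in differences that were not called. Without the 3 libraries these were Nlrc4 in blood (-0.18), in spleen (0.11) and between the tissues (-0.29), Aim2 in blood (-0.26) and between the tissues (-0.41), Nlrp1b in blood (-0.26), in spleen (-0.23) and between the tissues (-0.030), Casp4 in spleen (-0.12), Nek7 in spleen (0.068) and Gsdmd in intact blood against spleen (0.0056). With the replicate block it was Aim2 in spleen (-0.024). The ranges without 1 library that crossed 0 were, for resection in blood, -0.024 to 0.71 for Nlrc4 and -0.23 to 0.48 for Aim2, and for resection in spleen -0.38 to 0.11 for Nlrc4, -0.19 to 0.15 for Aim2, -0.69 to 0.22 for Mefv, -0.12 to 0.31 for Casp4, -0.23 to 0.24 for Nlrp1b and -0.099 to 0.068 for Nek7. They also crossed it for Gsdmd in intact blood against spleen (-0.50 to 0.0041), for Nlrc4 (-0.35 to 0.13), Casp1 (-0.11 to 0.015) and Nlrp1b (-0.50 to 0.029) after resection, and between the tissues for Aim2 (-0.26 to 0.47) and Nlrp1b (-0.030 to 0.63). The cause of these shifts was not tested.

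Over all features, 2801 were called for resection in blood, 1590 with only the groups compared, 4242 without a fold limit and 1633 to 2814 without 1 library. For spleen the count of 278 became 1564 with DESeq2, 101 without the filter, 489 with at least 10 counts, 150 with the replicate block, 829 without the 3 libraries and 1 to 1028 without 1 library. For intact blood against spleen 1480 became 2569 with DESeq2, 796 with only the groups compared and 531 to 1494 without 1 library, after resection 2646 became 1450 to 3623 without 1 library, and for the tissue difference 57 became 1150, 22, 99, 1 and 400 with DESeq2, no filter, at least 10 counts, the replicate block and without the 3 libraries, and 5 to 93 without 1 library. With 3 libraries a group, a member that missed the threshold in spleen is not shown to be unchanged there.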
